A study of Mus musculus with 4 samples.

Results

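Fatty acid and cholesterol synthesis genes were followed through the cells of mouse lung adenocarcinomas, as 34 genes taken by symbol from a list of enzymes, regulators and carriers of lipid synthesis. All 34 were found among the 28006 features of the deposited single-cell count matrices. Of these, 20 belong to the cholesterol side (7 mevalonate steps, 9 sterol steps and 4 genes of sterol sensing, SREBP factors and sterol transfer), and 14 to the fatty acid side (4 genes of acetyl-CoA, NADPH and chain synthesis, 4 desaturases, 3 elongases and 3 genes of acyl-CoA ligation and phosphatidylcholine).

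The study asked what the forkhead factors FoxA1 and FoxA2 do in lung adenocarcinoma that keeps the lung lineage factor Nkx2-1. Both genotypes, on a mixed 129/B6 background, carried p53frt and Rosa-FSF-CreERT2 among their alleles. KP mice in addition carried Foxa1flox/+ and Foxa2flox/+, so the controls were themselves floxed for 1 copy of each gene, and KPF1F2 mice carried Foxa1flox and Foxa2flox. Tumours were started with Ad5-mSPC-FlpO, an adenovirus in which the promoter of surfactant protein C drives Flp recombinase. The recombinase acts on the FSF and frt alleles and so turns on the tamoxifen-dependent Cre in the infected cells. All mice received tamoxifen (120 mg/kg, 4 daily injections) 10 weeks after virus, and tissue was collected at 12 weeks. Tumours were dissected, dissociated with collagenase, dispase and DNase, and loaded either before (pre-depletion) or after (post-depletion) magnetic removal of CD45+ and CD31+ cells. This gave 4 groups with 1 library each: KP pre-depletion, KPF1F2 pre-depletion, KP post-depletion and KPF1F2 post-depletion. The labels do not say how many mice went into a library or whether libraries of a genotype share mice.

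Cholesterol is built from acetyl-CoA through mevalonate and squalene, and fatty acids are built from the same acetyl-CoA by carboxylation, chain synthesis, desaturation and elongation. Both routes are switched on by the SREBP transcription factors, which sit in the endoplasmic reticulum with their escort SCAP. When sterols are plentiful, INSIG proteins hold that complex back, and when sterols are scarce SREBP is released and enters the nucleus. SREBP from Srebf2 is known mainly for cholesterol genes and that from Srebf1 mainly for fatty acid genes. In the lung, alveolar type 2 cells make the lipids of surfactant, most of it phosphatidylcholine, and are known for strong expression of lipid synthesis genes.

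SREBP reads a sterol response element, written TCACNCCAC in its classical form, usually beside a CCAAT box that is bound by NF-Y. The windows from 250 bases before to 50 after the start of transcription (RefSeq table, GRCm38.p6, the assembly also called mm10) were searched on both strands. They were available for 27 of the 34 members, 5 of them with several starts. CCAAT was found in 22 of 27 members (81.5%), against 41.1% of all 27025 genes in the table and 42.5% of 4427 genes expressed at 20 CPM or more in epithelial-like cells. Counting a gene once where any of its windows matched, it was found for 15 of 16 cholesterol-side genes (93.8%) and 7 of 11 on the fatty acid side (63.6%). TCACNCCAC was found in 1 of 27 members, Hmgcs1, against 1.44% of all genes. The GC box GGGCGG was in 81.5% of members, 38.2% of all genes and 73.8% of expressed genes, and the E-box CACGTG in 14.8%, 8.09% and 12.3%. Matches to different motifs may overlap, and a match is a description of letters only. Shown are the windows of Hmgcs1, the only member with TCACNCCAC, of Idi1 as a mevalonate gene with a wide gap between cell states, of Fasn for the fatty acid side, and of Acsl3, whose differences ran opposite to those of most members. Capitals mark TCACNCCAC (only in Hmgcs1, 137 bases before the start) and CCAAT or its reverse complement ATTGG (4, 2, 3 and 1 matches). The windows lie at chr13:119690101-119690400 (plus strand), chr13:8885356-8885655 (plus), chr11:120824498-120824797 (minus) and chr1:78657575-78657874 (plus), and are written 5′ to 3′ on the transcribed strand.
Hmgcs1: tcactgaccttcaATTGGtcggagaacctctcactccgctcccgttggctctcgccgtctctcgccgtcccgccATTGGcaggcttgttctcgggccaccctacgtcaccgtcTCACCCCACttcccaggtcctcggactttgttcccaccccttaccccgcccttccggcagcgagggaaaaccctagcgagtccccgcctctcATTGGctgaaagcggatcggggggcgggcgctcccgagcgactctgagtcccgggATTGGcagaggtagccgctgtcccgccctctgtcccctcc
Idi1: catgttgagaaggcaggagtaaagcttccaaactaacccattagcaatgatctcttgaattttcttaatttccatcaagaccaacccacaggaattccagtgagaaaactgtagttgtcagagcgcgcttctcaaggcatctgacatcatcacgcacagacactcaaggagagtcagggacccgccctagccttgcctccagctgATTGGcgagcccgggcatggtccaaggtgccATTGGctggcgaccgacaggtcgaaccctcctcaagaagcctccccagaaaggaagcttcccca
Fasn: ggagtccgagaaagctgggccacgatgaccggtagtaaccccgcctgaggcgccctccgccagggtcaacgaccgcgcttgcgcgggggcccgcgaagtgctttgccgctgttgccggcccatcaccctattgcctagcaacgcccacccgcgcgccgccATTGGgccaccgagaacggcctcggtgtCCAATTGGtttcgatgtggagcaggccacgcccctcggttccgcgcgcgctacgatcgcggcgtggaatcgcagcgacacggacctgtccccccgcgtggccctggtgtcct
Acsl3: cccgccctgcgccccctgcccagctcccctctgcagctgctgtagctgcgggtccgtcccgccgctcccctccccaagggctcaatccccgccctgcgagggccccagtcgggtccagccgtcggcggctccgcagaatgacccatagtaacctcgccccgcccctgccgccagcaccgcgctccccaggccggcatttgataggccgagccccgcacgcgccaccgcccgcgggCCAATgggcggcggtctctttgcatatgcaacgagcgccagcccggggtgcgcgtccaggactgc

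The libraries held 47805086 to 63010016 UMIs (unique molecular identifiers, here counted molecules), and 2475 to 3616 cells per library were kept, with medians of 7080 to 16410 UMIs. 54 barcodes occurred in more than 1 library. KP libraries expressed Xist (655 and 706 CPM in epithelial-like cells) and KPF1F2 libraries the Y-linked Ddx3y (30.4 and 34.2 CPM), so sex and genotype cannot be told apart, which touches the X-linked members Nsdhl, Ebp and Acsl4. The KPF1F2 pre-depletion library also has a different number in its title from the other 3. What this number stands for is unknown. The epithelial-like class held 685, 199, 2689 and 1936 cells (KP pre-depletion, KPF1F2 pre-depletion, KP post-depletion and KPF1F2 post-depletion), expressed Epcam at 656 to 835 CPM and Nkx2-1 at 145 to 189 CPM, and all 8 of its markers were detected in each library.

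Epithelial-like cells were divided by 2 features that are not members. Transgene-positive cells had 1 or more CRE-ERT2 UMIs (256, 51, 849 and 582 cells in the same order) of the Flp-dependent Rosa allele. In the other classes with 50 cells or more, 0 to 2.91% of cells had such a UMI, against 25.6% to 37.4% of epithelial-like cells. Sftpc-high cells had no CRE-ERT2 UMI and Sftpc, the surfactant gene of alveolar type 2 cells, at 1% or more of their UMIs (329, 57, 1343 and 636 cells). The remaining 100, 91, 497 and 718 cells met neither rule. A cell without a CRE-ERT2 UMI may still carry the transgene, since it was detected at only 48.7 to 66.9 CPM in the cells that have it and depth differed: medians were 20984 to 35663 UMIs in transgene-positive and 8470 to 25347 in Sftpc-high cells. Of the targeted genes, Foxa1 was checked through the added feature Foxa1_2, since the entries Foxa1 and Foxa2 held no UMI. Foxa2 could not be checked: its added features held 0 to 8 UMIs in each epithelial-like sum. In transgene-positive cells Foxa1_2 stood at 17.4 and 16.8 CPM in KP against 0.487 and 0.325 CPM in KPF1F2. In Sftpc-high cells Foxa1_2 stood at 13.7 and 14.1 CPM in KP against 22.6 and 11.6 CPM in KPF1F2, so the Sftpc-high cells labelled KPF1F2 kept that feature. The feature Foxa1_1 was not lower in KPF1F2 transgene-positive cells (8.76 and 9.87 CPM against 4.50 and 2.17 CPM in KP). In Sftpc-high cells Foxa1_1 was lower in KPF1F2 (0.706 and 1.88 CPM against 3.79 and 3.49 CPM in KP). The part of the gene that each feature covers is not given in the sources used here.

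Values below are CPM, the UMIs of a gene per 1000000 UMIs of the summed cells, and where a pair is given it is pre-depletion, then post-depletion. CPM of different genes are not compared, because 3′ counts depend on how each transcript is captured. A difference is the log2 of (CPM + 1) over (CPM + 1). A gene entered a comparison at a mean of 20 CPM or more over the 4 sums, and it was counted as higher or lower when the difference reached 1.5-fold (0.58 on the log2 scale) in the same direction in both depletion states. Each group being 1 library, no replicate error and no test can be given. Intervals are 95%, exact Poisson or binomial, and cover counting error only.

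Across cell classes, the fatty acid side stood highest in epithelial-like cells, while the cholesterol side was shared with alveolar macrophage-like cells. In KP pre-depletion, the 14 fatty acid genes summed to 3280 CPM in epithelial-like cells and to 284 to 583 CPM in the other 7 classes with 50 cells or more. In KPF1F2 pre-depletion they summed to 5574 CPM in epithelial-like cells and to 137 to 712 CPM in the other 9 classes. The 20 cholesterol genes summed to 821 CPM in epithelial-like and 623 CPM in alveolar macrophage-like cells of KP, and to 1124 and 1210 CPM in those of KPF1F2. Epithelial-like cells were highest for 18 of 34 members in KP pre-depletion and for 15 of 34 in KPF1F2 pre-depletion. In KP pre-depletion 6 members were highest in monocyte-like cells, which numbered only 51. Classes were named from clusters of all variable genes, with Scd1 among the 10 leading genes of epithelial cluster 0, so levels by class are a description.

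The members with the widest lead in epithelial-like cells were enzymes of the fatty acid side. Me1, the malic enzyme that supplies NADPH, stood at 176 CPM in KP pre-depletion, 28.8 times the next class (endothelial-like, 6.12 CPM), and at 160 CPM in KPF1F2 pre-depletion against 38.3 CPM in fibroblast-like cells. Fasn, the fatty acid synthase, stood at 337 CPM against 21.7 CPM in T cell-like cells (15.5 times) and at 452 against 38.3 CPM (11.8 times). Scd1, the stearoyl-CoA desaturase, stood at 1503 CPM against 359 CPM in B cell-like cells and at 3471 against 268 CPM. Elovl1, an elongase of long saturated chains, stood at 409 against 92.8 CPM and at 486 against 99.0 CPM, and Acsl4, a ligase that favours arachidonate, at 271 against 61.9 CPM and at 187 against 49.2 CPM.

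Other members peaked outside the epithelium. Mvd, the mevalonate diphosphate decarboxylase, was highest in alveolar macrophage-like cells in both pre-depletion libraries (57.8 CPM in KP and 89.8 in KPF1F2), and so was Dhcr7, the reductase of the last sterol step (22.9 and 34 CPM). Stard4, which carries sterol between membranes, was highest in endothelial-like cells (56.1 and 43.0 CPM), and the sterol desaturase Sc5d in T cell-like cells (35.5 and 33.9 CPM). In KPF1F2 neither lead was clear of the next class by its interval. That class was alveolar macrophage-like for Stard4 (30.8 CPM) and fibroblast-like for Sc5d (28.5 CPM). Fibroblast-like cells, counted in KPF1F2 but under 50 cells in KP pre-depletion, led for the polyunsaturated fatty acid desaturases Fads1 (68.2 CPM) and Fads2 (13.2 CPM), the elongase Elovl6 (32.0 CPM) and Chpt1 (148 CPM), which makes phosphatidylcholine. Post-depletion, epithelial-like cells were highest for 24 of 34 members among 2 classes in KP and for 22 of 34 among 3 classes in KPF1F2, where Fads1 reached 57.8 CPM and Fads2 15.6 CPM in mesothelial-like cells. The plot of levels by class shows 8 of these genes side by side.

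**Figure D1:**
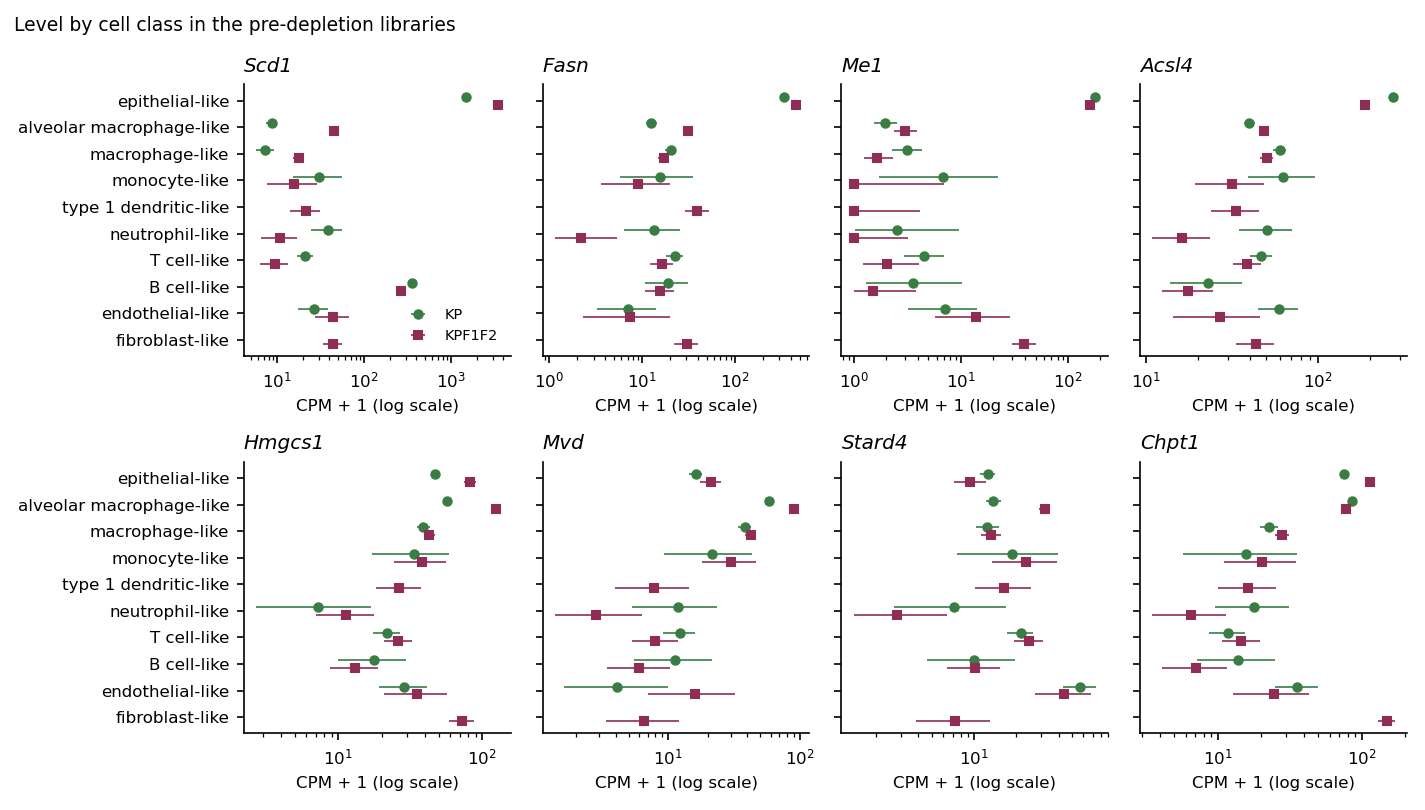
Level of 8 genes (panels) by cell class (rows) in the pre-depletion libraries, as CPM + 1 on a log axis, with green circles for KP, purple squares for KPF1F2 and 95% Poisson intervals as bars. Scd1, Fasn, Me1 and Acsl4 peak in epithelial-like cells, Hmgcs1 and Mvd in alveolar macrophage-like cells, and Stard4 in endothelial-like cells. Type 1 dendritic-like and fibroblast-like cells are drawn for KPF1F2 alone, since KP had under 50 of them.

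Over all epithelial-like cells, KPF1F2 had more transcript of several genes of both routes than KP. Of 25 members that entered, 9 were higher and 1 was lower, where 9.02% of 5699 genes were higher and 5.23% lower. The 34 members had a median difference of 0.43, and of 0.35 post-depletion, where all genes that entered had 0.10 and 0.08. With TMM scaling, which moved the median of all genes from 0.10 to -0.06 pre-depletion, 7 members were higher and 1 lower, beside 6.51% and 6.93% of genes, and Fads1 and Chpt1 were no longer counted.

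Scd1 was highest in both KPF1F2 libraries: it stood at 1503 and 816 CPM in KP against 3471 and 2833 CPM in KPF1F2, a ratio of 2.31 (2.27 to 2.35) and 3.47 (3.43 to 3.51). The 4 libraries did not overlap by genotype, and the difference (1.21 and 1.79) exceeded the change from pre-depletion to post-depletion within KP (-0.88) and within KPF1F2 (-0.29). Elovl5, which elongates polyunsaturated chains, stood at 50.8 and 42.0 CPM in KP against 107 and 83.0 CPM in KPF1F2. Acly, which makes cytosolic acetyl-CoA from citrate, stood at 99.5 and 80.4 CPM against 186 and 142 CPM. Insig1, which retains SREBP in the endoplasmic reticulum and is itself an SREBP target, stood at 26.7 and 18.3 CPM against 52.3 and 38.5 CPM. For each of these genes both KPF1F2 libraries lay above both KP libraries. They were picked for passing 1.5-fold in both pairs, so this separation adds no support. The share of all genes with it is not given here.

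Of the early cholesterol enzymes 3 were counted. Acat2, which condenses acetyl-CoA into acetoacetyl-CoA, stood at 21.8 and 16.1 CPM in KP against 40.3 and 28.5 CPM in KPF1F2. Hmgcs1, the HMG-CoA synthase, stood at 45.9 and 37.6 CPM against 81.0 and 61.8 CPM, and Idi1, the isopentenyl diphosphate isomerase, at 37.4 and 25.4 CPM against 67.4 and 50 CPM. In all 3 the KPF1F2 values were the higher pair, again among genes picked for passing the fold. Chpt1 (74.5 and 60.7 against 113 and 100 CPM) was just inside the threshold, and Fads1 (24.4 and 14.7 against 43.9 and 22.7 CPM) differed less between genotypes (0.82 and 0.60) than between its own KPF1F2 libraries (-0.92). The single lower member was Acsl3, a ligase of long-chain fatty acids found on lipid droplets and the endoplasmic reticulum, at 56.5 and 70.5 CPM in KP and 30.1 and 34.6 CPM in KPF1F2 (-0.89 and -1.01).

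These sums mix states in unequal numbers: the transgene-positive cells of KP still held Sftpc at 1% or more of UMIs in 63.3% and 51.9% of cells, and those of KPF1F2 in 15.7% and 10.3%. The clusters differed too. KP epithelial-like cells lay mainly in clusters 0, 2 and 4 and KPF1F2 cells in clusters 5, 0 and 9, and of these cluster 0 alone held over 40 cells of every library. Markers of alveolar type 1 cells moved with this comparison, 6 of 7 that entered being higher in KPF1F2 (medians of 1.32 and 1.29), as were 5 of 6 within transgene-positive cells and 2 of 5 within Sftpc-high cells. In the same sums 4 of 7 cycling genes were higher in KPF1F2. Their part in the result was not tested. The comparison was repeated within each state, as the plot of genotype differences shows.

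**Figure D2:**
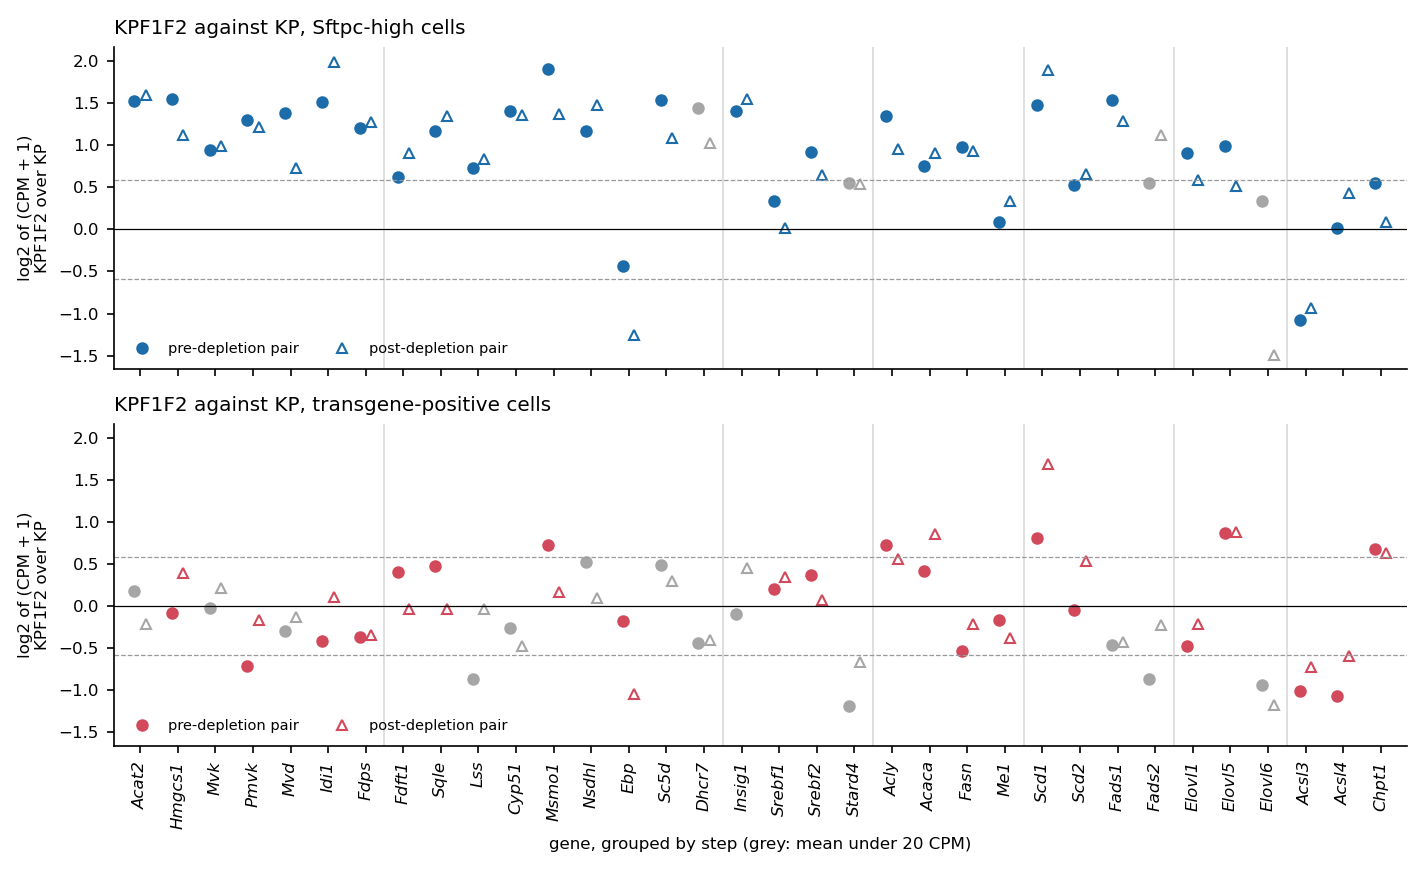
Log2 of (CPM + 1) of KPF1F2 over KP for the 34 genes in order of the routes, in Sftpc-high cells (upper panel) and transgene-positive cells (lower panel). Filled circles are the pre-depletion and open triangles the post-depletion pair, dashed lines mark 1.5-fold, and grey symbols are genes under a mean of 20 CPM. Of the coloured genes, 21 lie above the upper line with both symbols in Sftpc-high cells and 3 in transgene-positive cells.

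Within Sftpc-high cells, nearly the whole cholesterol side was higher in KPF1F2 than in KP. Of 30 members that entered, 21 were higher and 1 lower, where 6.80% of 5104 genes were higher and 5.76% lower, and 13 members were higher by 2-fold or more. The count was 16 of 20 on the cholesterol side, with 18 entering, and 5 of 14 on the fatty acid side, with 12 entering. All 7 mevalonate genes were higher, 7 of 9 sterol genes, and 2 of 4 of the sensing group. The median difference was 0.99 and 0.94 over the 34 members (1.25 and 1.10 on the cholesterol side, 0.65 and 0.62 on the fatty acid side) and 0.05 and -0.06 over all genes. The 2 genotypes differed in the clusters that made up this state. Cluster 2 held 35.0% and 40.0% of the KP Sftpc-high cells, and cluster 5 held 22.8% and 20.4% of those of KPF1F2. Cluster 20 held a further 16.7% of KPF1F2 Sftpc-high cells post-depletion. The part of this mix in the counts was not tested. In cluster 0 alone, a choice made after seeing the data, 15 members were higher and 0 lower, where 5.15% and 2.25% of genes were, and the members' median was 0.97 and 0.67 (0.64 and 0.26 on the fatty acid side). There Hmgcs1, Mvd, Fdft1, Lss, Acaca, Fasn and Acsl3 were no longer counted. At finer clustering (resolution 2), the genotypes were not evenly mixed among clusters led by surfactant genes. Finer cluster 0 held 193 and 596 KP cells against 13 and 102 KPF1F2 cells. Finer cluster 12, with Scd1 among its leading genes, held 44 and 41 against 30 and 270. The genotypes were not compared within these finer clusters.

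Within transgene-positive cells the picture differed: of 21 members that entered, 3 were higher and 2 lower in KPF1F2, where 12.0% of 5798 genes were higher and 5.57% lower. No cholesterol-side gene was counted in either direction. The median was -0.13 and -0.04, against 0.19 and 0.12 over all genes. With TMM scaling 2 members were higher (Scd1 and Elovl5) and 2 lower, beside 8.18% and 7.55% of genes, and the median of all genes was 0.01 and 0.02. Among cells of 10000 to 40000 UMIs the members' median was 0.13 and 0.19, against 0.18 and 0.12 over all genes. Whether the genotype difference itself differed between the states could not be tested with 1 library per group.

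The states themselves lay far apart, and farther in KPF1F2. In KP, 13 of 25 members that entered were lower in transgene-positive than in Sftpc-high cells and 1 was higher, where 5.52% of 5418 genes were lower and 16.4% higher. In KPF1F2, 21 of 29 were lower and 2 higher, where 7.12% of 5534 genes were lower and 30.3% higher. The median difference of members was -0.78 and -0.65 in KP and -1.92 and -1.51 in KPF1F2, while that of all genes was 0.21 and 0.22, and 0.38 and 0.44. Surfactant transcripts take a large part of the total in Sftpc-high cells, and TMM scaling moved the all-gene medians to 0.07 and 0.06 in KP and to 0.09 and 0.09 in KPF1F2. Under it 17 members were lower in KP (8.03% of genes lower, 10.3% higher) and 25 in KPF1F2 (12.2% lower, 16.0% higher).

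The log2 difference of transgene-positive to Sftpc-high cells was lower in KPF1F2 than in KP for 13 of 25 members. The rule was 1.5-fold or more in both depletion states, and 3.68% of 4996 genes met it. For no member was this difference higher in KPF1F2 by that size, where 9.35% of genes were. The 13 were Acat2, Hmgcs1, Pmvk, Idi1, Fdps, Sqle, Cyp51, Msmo1, Insig1, Fasn, Fads1, Elovl1 and Acsl4. Lower does not always mean a wider gap: Msmo1 post-depletion was at 0.77 in KP and -0.43 in KPF1F2. KP transgene-positive cells held Sftpc at 1% or more in 63.3% and 51.9% of cells, those of KPF1F2 in 15.7% and 10.3%. With only those under 1%, chosen after seeing the data, the fatty acid side had a median gap of -1.77 and -1.68 in KP. In KPF1F2 it was -1.85 and -1.71. The cholesterol side had -0.91 and -0.35 in KP, and -1.98 and -1.57 in KPF1F2. The part of this mix in the gap was not tested. The plot of levels by state shows the members in the order of the routes.

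**Figure D3:**
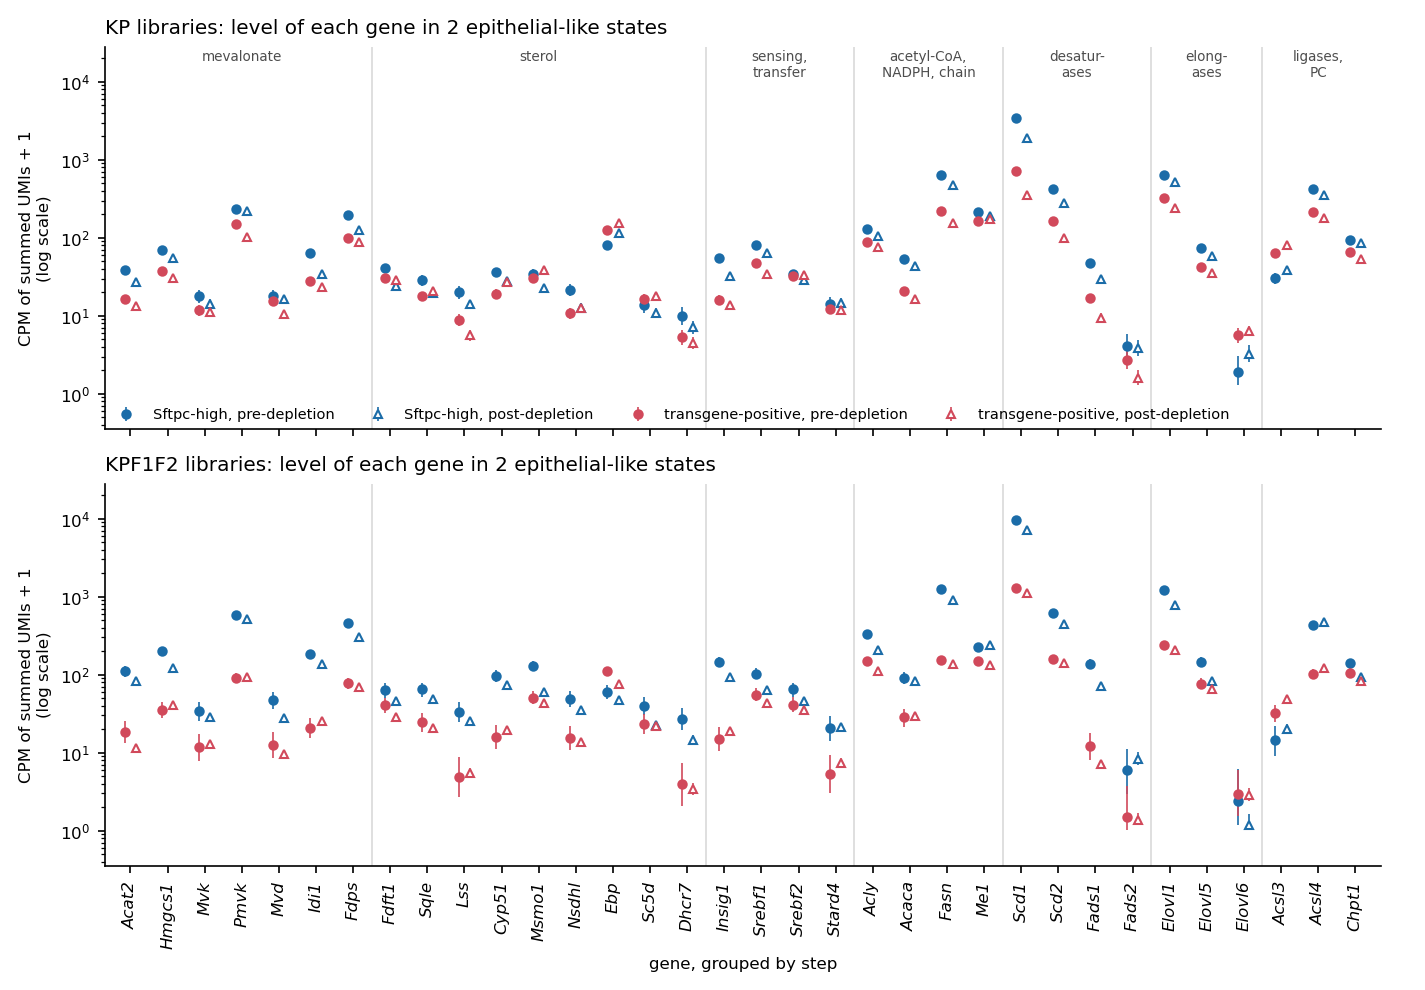
CPM + 1 on a log axis for the 34 genes in KP (upper panel) and KPF1F2 (lower panel), with Sftpc-high cells in blue and transgene-positive cells in red, filled circles for pre-depletion, open triangles for post-depletion and 95% Poisson intervals as bars. The blue and red symbols lie farther apart in KPF1F2, where 21 genes were lower in transgene-positive cells against 13 in KP, while Ebp and Acsl3 lie higher in red.

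The mevalonate steps carried the clearest pattern. Hmgcs1 (ENSMUSG00000093930) stood in Sftpc-high cells at 68.5 and 54.7 CPM in KP against 202 and 120 CPM in KPF1F2, a ratio of 2.95 (2.52 to 3.44) and 2.19 (2.01 to 2.40). In cluster 0 alone the ratios were 2.65 and 1.49. In transgene-positive cells it stood at 36.7 and 29.7 CPM in KP against 34.6 and 39.3 CPM in KPF1F2. The genotypes thus lay apart in Sftpc-high cells and overlapped in transgene-positive cells. The difference between states was -0.88 and -0.86 in KP and -2.51 and -1.59 in KPF1F2. Idi1 (ENSMUSG00000058258) stood at 63.3 and 33.1 CPM in KP and 182 and 134 CPM in KPF1F2 in Sftpc-high cells, a ratio of 2.88 (2.44 to 3.39) and 4.06 (3.66 to 4.51). In transgene-positive cells it was at 27.1 and 22.8, and 20 and 24.7 CPM, so that in KPF1F2 these cells held 0.110 (0.0769 to 0.153) and 0.184 (0.167 to 0.202) of the Sftpc-high level.

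Acat2 followed the same order, with 37.5 and 26.5 CPM in KP and 109 and 81.9 CPM in KPF1F2 among Sftpc-high cells, and 15.4 and 12.2, and 17.5 and 10.4 CPM among transgene-positive cells. Its near-identical neighbour Acat3 stood at 0.187 to 0.657 CPM over all epithelial-like cells. Pmvk, the phosphomevalonate kinase, stood at 235 and 223 CPM and at 581 and 515 CPM in Sftpc-high cells, and at 148 and 102, and 90.1 and 91.4 CPM in transgene-positive cells. Fdps, the farnesyl diphosphate synthase, stood at 198 and 127 CPM and at 457 and 307 CPM, against 99.3 and 87.8, and 76.4 and 69.3 CPM. For both Pmvk and Fdps, KPF1F2 was the higher genotype in Sftpc-high cells and the lower one over all transgene-positive cells, although among those with Sftpc under 1% Pmvk was higher in KPF1F2 (38.8 and 41.7 against 55.8 and 73.7 CPM). The decarboxylase Mvd (16.9 and 15.5 against 45.9 and 26.4 CPM) and the mevalonate kinase Mvk (16.8 and 13.3 against 33.2 and 27.4 CPM) were higher in KPF1F2 Sftpc-high cells as well. In transgene-positive cells Mvk lay between 10.1 and 11.8 CPM in all 4 libraries, and Mvd between 8.69 and 14.6 CPM. All 7 mevalonate genes were lower in transgene-positive cells of KPF1F2 and 3 of 7 (Acat2, Hmgcs1, Pmvk) in those of KP.

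Of the sterol steps, 7 of 9 were higher in KPF1F2 Sftpc-high cells. Msmo1, the methylsterol monooxygenase, stood at 33.3 and 22.0 CPM in KP against 127 and 58.3 CPM in KPF1F2, a ratio of 3.81 (3.08 to 4.70) and 2.66 (2.32 to 3.05). Its transgene-positive values (29.8 and 38.1, and 49.7 and 42.9 CPM) put KP transgene-positive cells above KP Sftpc-high cells post-depletion only, and the gap in KPF1F2 (-1.34 and -0.43) was not past the fold in both states. Cyp51, the lanosterol demethylase, stood at 35.3 and 27.4 CPM and at 95.2 and 72.1 CPM in Sftpc-high cells, and at 18.3 and 26.0, and 15.1 and 18.3 CPM in transgene-positive cells. Sqle, the squalene epoxidase, stood at 27.8 and 18.5 CPM and at 63.5 and 48.4 CPM, against 16.9 and 20, and 23.9 and 19.4 CPM. Both KPF1F2 Sftpc-high libraries were the highest of the 8 sums for Cyp51 and for Sqle. In KP, no sterol step differed between the states by 1.5-fold in both depletion states among the 5 that entered.

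Nsdhl, a sterol dehydrogenase (20.7 and 11.8 against 48.0 and 34.5 CPM), and Sc5d (12.8 and 9.84 against 38.8 and 21.9 CPM) were also higher in KPF1F2 Sftpc-high cells. The squalene synthase Fdft1 (40.0 and 23.5 against 62.1 and 44.8 CPM) and the lanosterol synthase Lss (19.1 and 13.2 against 32.5 and 24.2 CPM) were nearer the threshold, at 0.62 and 0.90, and 0.73 and 0.83. Dhcr7 (9.01 and 6.13 against 26.1 and 13.5 CPM) had the same direction but did not enter for its low level. Ebp, a sterol isomerase on the X chromosome, was the exception: it stood in Sftpc-high cells at 80.0 and 113 CPM in KP against 59.3 and 46.7 CPM in KPF1F2. It was the only sterol gene with a higher value in transgene-positive cells of all 4 libraries, at 125 and 155 CPM in KP and 111 and 74.6 CPM in KPF1F2, and was past 1.5-fold there in KPF1F2 (0.89 and 0.66) but not under TMM scaling.

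Among the regulators, Insig1 (ENSMUSG00000045294) had the direction of the enzymes, and of the SREBP genes only Srebf2 did. Insig1 stood in Sftpc-high cells at 53.9 and 31.2 CPM in KP against 145 and 93.1 CPM in KPF1F2 (1.41 and 1.55). In transgene-positive cells it stood at 15.2 and 12.8, and 14.1 and 17.9 CPM, so the 4 libraries there lay close together. The step down between states was -1.76 and -1.22 in KP and -3.27 and -2.32 in KPF1F2. Srebf2 stood at 33.2 and 27.9 CPM and at 63.5 and 44.4 CPM in Sftpc-high cells (0.92 and 0.65), and at 31.0 to 40.4 CPM in transgene-positive cells. Srebf1 was not counted between genotypes in either state, with 80.6 and 62.8 CPM and 102 and 63.3 CPM in Sftpc-high cells (0.34 and 0.01), although it was lower in KP transgene-positive cells (47.3 and 33.6 CPM). Stard4 lay at 13.2 to 20.5 CPM in Sftpc-high and at 4.38 to 11.3 CPM in transgene-positive cells and did not enter.

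On the fatty acid side, Fasn (ENSMUSG00000025153) stood in Sftpc-high cells at 641 and 473 CPM in KP against 1266 and 904 CPM in KPF1F2, a ratio of 1.97 (1.86 to 2.09) and 1.91 (1.86 to 1.97), which in cluster 0 alone were 1.75 and 1.28. Transgene-positive cells held 223 and 156 CPM in KP and 154 and 135 CPM in KPF1F2, which was 0.347 (0.330 to 0.365) and 0.329 (0.316 to 0.343) of the Sftpc-high level in KP, and 0.122 (0.107 to 0.137) and 0.149 (0.143 to 0.155) in KPF1F2. The genotype order was thus opposite in the 2 states over all transgene-positive cells. Among those with Sftpc under 1% it was the same as in Sftpc-high cells (47.7 and 39.6 CPM in KP against 121 and 109 CPM in KPF1F2). Acaca, the carboxylase that makes malonyl-CoA, stood at 52.8 and 42.8 CPM and at 89.6 and 81.5 CPM in Sftpc-high cells, and at 20.1 and 15.3, and 27.3 and 28.7 CPM in transgene-positive cells. Acly stood at 129 and 105 CPM and at 330 and 203 CPM, against 88.7 and 74.4, and 147 and 110 CPM. For Acaca and Acly, KPF1F2 was higher than KP in both states, by 1.5-fold in both depletion states in Sftpc-high cells only. Me1 lay at 190 to 239 CPM in all Sftpc-high sums and at 132 to 172 CPM in all transgene-positive sums, and differed little by genotype (0.09 and 0.33, and -0.16 and -0.38).

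Scd1 (ENSMUSG00000037071) combined a state difference with a genotype difference in both states. In Sftpc-high cells it stood at 3460 and 1919 CPM in KP against 9575 and 7094 CPM in KPF1F2, a ratio of 2.77 (2.71 to 2.83) and 3.70 (3.65 to 3.75). In transgene-positive cells it stood at 724 and 350 CPM in KP against 1271 and 1128 CPM in KPF1F2, a ratio of 1.76 (1.68 to 1.83) and 3.22 (3.14 to 3.31). KPF1F2 was the higher genotype in every pair, and transgene-positive cells were the lower state in every library (-2.25 and -2.45 in KP, -2.91 and -2.65 in KPF1F2). In transgene-positive cells Scd1 was not counted as higher without cells that had a Mki67 or Top2a UMI, among cells of 10000 to 40000 UMIs, or with 2 CRE-ERT2 UMIs, where the pre-depletion difference was 0.39, 0.40 and 0.44. Scd2, its close homologue, stood at 426 and 278 CPM and at 617 and 439 CPM in Sftpc-high cells, just outside the fold (0.53 and 0.66), and at 162 and 97.5, and 157 and 141 CPM in transgene-positive cells. Scd1 and Scd2 are similar in sequence, so a part of their counts may be uncertain, while Scd3 and Scd4 held 0 to 18 UMIs in each epithelial-like sum. Fads1 stood at 46.0 and 28.7 CPM and at 135 and 71.4 CPM in Sftpc-high cells, and at 15.8 and 8.53, and 11.2 and 6.05 CPM in transgene-positive cells. Its transgene-positive level in KPF1F2 was 0.0826 (0.0512 to 0.128) and 0.0847 (0.0707 to 0.101) of the Sftpc-high level, the widest gap of any member counted. Fads2 stayed at 7.37 CPM or less throughout.

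The elongases and ligases split. Elovl1 stood at 642 and 516 CPM and at 1211 and 769 CPM in Sftpc-high cells (0.91 and 0.58, just under the fold), and at 327 and 242, and 237 and 209 CPM in transgene-positive cells. Elovl5 stood at 72.8 and 57.7 CPM and at 146 and 82.8 CPM in Sftpc-high cells, and was counted as higher in KPF1F2 only in transgene-positive cells, at 41.0 and 34.9 against 75.9 and 65.2 CPM (0.87 and 0.88). Chpt1 had the same form, with 64.6 and 52.6 against 104 and 81.7 CPM in transgene-positive cells (0.68 and 0.63) and 93.9 and 85.6 against 138 and 91.0 CPM in Sftpc-high cells. Acsl4 was lower in KPF1F2 transgene-positive cells (214 and 180 against 101 and 119 CPM) and level in Sftpc-high cells pre-depletion (424 against 428 CPM, with 354 against 478 CPM post-depletion). Elovl6 was at 5.46 CPM or less in every sum.

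Acsl3 was lower in KPF1F2 and higher in transgene-positive cells in every pair. Ebp had the same directions, and Acsl3 was the only member with 1.5-fold or more in all of them. It stood in Sftpc-high cells at 29.4 and 37.7 CPM in KP against 13.4 and 19.3 CPM in KPF1F2, and in transgene-positive cells at 63.7 and 80.5 CPM in KP against 31.2 and 48.4 CPM in KPF1F2. Transgene-positive cells held 2.17 (1.83 to 2.58) and 2.13 (1.94 to 2.36) times the Sftpc-high level in KP, and 2.32 (1.37 to 4.11) and 2.51 (2.18 to 2.91) times in KPF1F2. Acsl3 and Acsl4 thus had opposite state differences in both genotypes.

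Transgene-positive cells were not uniform, and the genotype comparison within them changed once cells that still expressed much Sftpc were set aside, a choice made after seeing the data. Among transgene-positive cells with Sftpc under 1% of UMIs (94, 43, 408 and 522 cells), Scd1 stood at 51.3 and 47.0 CPM in KP against 1184 and 912 CPM in KPF1F2, a ratio of 23.1 (19.9 to 26.9) and 19.4 (17.8 to 21.2). Fasn stood at 47.7 and 39.6 CPM against 121 and 109 CPM, the reverse of its order over all transgene-positive cells. In all, 8 members were higher in KPF1F2 (Srebf1, Acly, Fasn, Scd1, Scd2, Elovl1, Elovl5 and Chpt1) and 1 lower (Acsl3), where 10.6% of genes were higher and 7.72% lower. The fatty acid side had a median of 0.94 and 0.88 and the cholesterol side of 0.14 and -0.21.

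In these low-Sftpc cells Chpt1 stood at 28.8 and 26.8 CPM in KP against 100 and 74.6 CPM in KPF1F2. Elovl5 stood at 22.3 and 23.4 CPM against 72.0 and 61.4 CPM, and Elovl1 at 102 and 101 CPM against 208 and 183 CPM. All 3 were among the members counted as higher in these cells. Hmgcs1 (28.0 and 27.2 against 36.8 and 36.0 CPM) and Idi1 (18.6 and 24.5 against 20.1 and 22.4 CPM) were not counted. Where instead 2 or more CRE-ERT2 UMIs were asked of each cell (133, 18, 339 and 297 cells), 0 members were higher and 2 lower (Ebp and Acsl4), where 10.6% and 5.59% of genes were, and Scd1 stood at 478 and 217 CPM in KP against 651 and 694 CPM in KPF1F2. Epithelial-like cells of neither state gave the same order for Scd1 as the low-Sftpc cells, with 176 and 104 CPM in KP and 1277 and 2115 CPM in KPF1F2, and for Fasn, with 49.5 and 52.0 CPM against 164 and 223 CPM.

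To see whether sums reflected many cells, each cell was thinned to 5000 UMIs and cells with a UMI were counted. Shallower cells were left out, 1 to 48 per library of transgene-positive and 5 to 422 of Sftpc-high cells. In KP pre-depletion, Fasn was seen in 52.0% (45.6 to 58.4) of transgene-positive and 85.4% (80.1 to 89.7) of Sftpc-high cells, and in KPF1F2 post-depletion in 39.5% and 93.5%. Scd1 was seen in 53.7% and 92.9% in KP pre-depletion, and in 68.7% (64.7 to 72.5) and 99.5% (98.3 to 99.9) in KPF1F2 post-depletion. Unthinned, the Scd1 shares were 82.5% and 99.1%, and 91.1% and 100%. In T cell-like cells thinned the same way (353 and 193 cells, medians of 6284 and 6387 UMIs, KP and KPF1F2 pre-depletion) the shares were 8.50% and 7.25% for Fasn and 7.93% and 3.63% for Scd1. Fasn and Scd1 thus lay above the T cell-like shares in both states.

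Cholesterol genes were seen in fewer cells at this depth. Idi1 was seen in 9.25% of transgene-positive and 41.7% of Sftpc-high cells of KPF1F2 post-depletion, and in 8.86% and 15.4% of KP post-depletion, with 7.93% and 9.33% in T cell-like cells. The transgene-positive shares of Idi1 lay near those of T cell-like cells. These cells themselves held Idi1 at 19.7 CPM in KP pre-depletion, so their share is not taken as a measure of free RNA. With intervals apart, 13, 15, 16 and 23 members had a lower share in transgene-positive cells (KP pre-depletion, KPF1F2 pre-depletion, KP post-depletion, KPF1F2 post-depletion), where 5.15%, 2.48%, 10.1% and 8.98% of genes did. A higher share was found for 1, 0, 2 and 2 members, where 14.6%, 3.65%, 33.8% and 36.2% of genes had one: Acsl3 in KP pre-depletion, and Acsl3 and Ebp in both post-depletion libraries. Acsl3 was seen in 28.5% of transgene-positive and 15.9% of Sftpc-high cells of KP post-depletion. Ebp was seen in 40.2% and 46.6% of T cell-like cells, which held it at 106 CPM in KP and 119 CPM in KPF1F2 pre-depletion. Its epithelial shares were 43.9% and 34.9% in KP post-depletion, and no expression difference is read from them. The plot of shares gives the intervals.

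**Figure D4:**
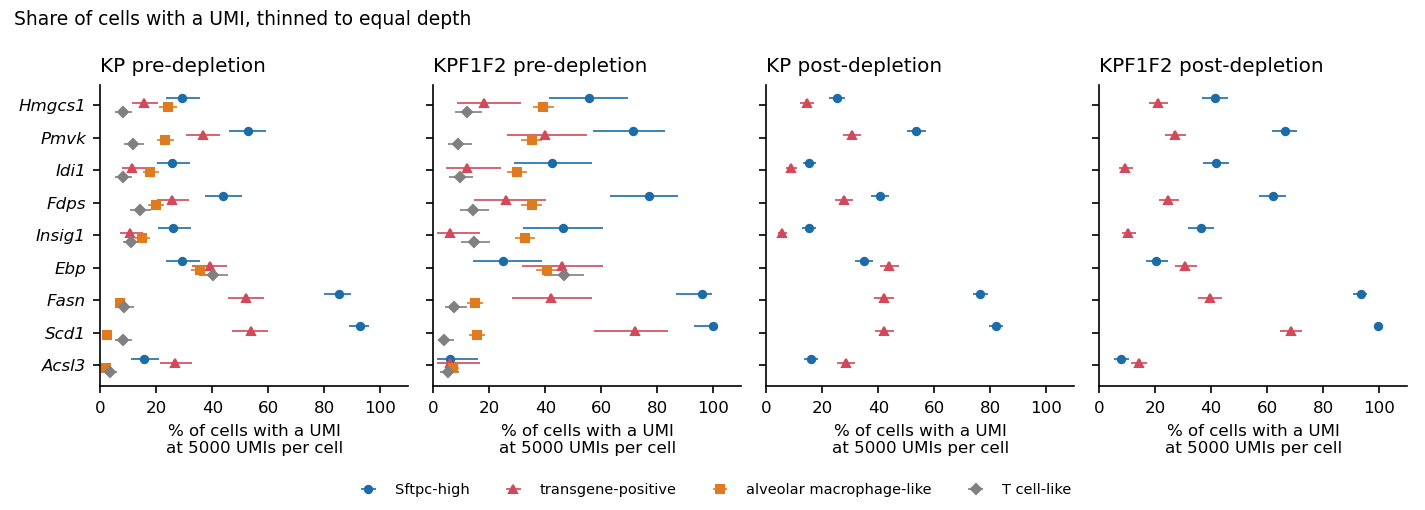
Percent of cells with a UMI of each of 9 genes after thinning to 5000 UMIs per cell, in 4 panels by library, with 95% binomial intervals as bars. Blue circles (Sftpc-high) lie to the right of red triangles (transgene-positive) for Fasn and Scd1 in all 4 libraries. Alveolar macrophage-like cells (orange) and T cell-like cells (grey) are drawn where 50 or more were present.

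Related genes were read from other lists in Sftpc-high cells, as KP against KPF1F2. Of 9 genes of SREBP control and sterol uptake, 7 entered, 3 were higher and 0 lower, among them the SREBP escort Scap (23.3 and 20.4 against 52.2 and 36.7 CPM) and Tmem97 (22.7 and 16.4 against 40.9 and 35.5 CPM). Of 22 other fatty acid synthesis genes, 10 entered and 2 were higher, the citrate carrier Slc25a1 and the ligase Acsl5. Of 12 fatty acid oxidation genes, 7 entered and 0 were counted in either direction, at medians of -0.05 and -0.01.

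Between states, fatty acid oxidation genes had 0 counted of 7 that entered in KP and 0 of 8 in KPF1F2. Other measures moved with these comparisons. All 10 alveolar type 2 markers were lower in KPF1F2 transgene-positive cells and 9 of 10 in KP. Their summed levels were 15999 to 118558 CPM against 210800 to 257172 CPM in Sftpc-high cells. The list includes Sftpc, whose level defines the Sftpc-high state, so a large part of this gap follows from that rule. Sftpc alone stood at 4110 to 89548 CPM in transgene-positive and at 151753 to 176054 CPM in Sftpc-high cells. Within Sftpc-high cells, 6 of 10 were higher in KPF1F2, beside the members.

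Stress and cycling genes also moved with genotype in Sftpc-high cells. Of 9 dissociation stress genes 3 were higher in KPF1F2, the heat shock genes Hspa1a (118 and 131 CPM in KP, 748 and 768 CPM in KPF1F2) and Hspa1b, and Atf3, while the whole list summed to 5029 and 6333 CPM in KP and to 5946 and 7525 CPM in KPF1F2. Of 8 cycling genes 4 were higher, and the list summed to 173 and 212 CPM against 361 and 357 CPM. Without cells that had a Mki67 or Top2a UMI, 22 members were higher (6.36% of genes) and 1 lower (5.43%) in Sftpc-high cells. Cycling cells without such a UMI may remain, since its detection depends on depth. Markers of other cells were low in Sftpc-high cells: the 6 fibroblast markers summed to 57.0 and 105 CPM in KP and to 2.12 and 11.2 CPM in KPF1F2, the 8 macrophage markers to 6.68 to 62.1 CPM and the 10 alveolar macrophage markers to 37.4 to 231 CPM in the 4 libraries. Of the fibroblast markers Pdgfra and Lum were at 0 in both pre-depletion libraries. In transgene-positive cells the 5 mesothelial markers summed to 50.2 and 190 CPM in KP and to 344 and 421 CPM in KPF1F2, with Upk3b, Wt1, Lrrn4 and Upk1b at 0 in KPF1F2 pre-depletion. The part of stress genes, of cycling and of RNA from other cells in the differences was not tested.

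Outside the epithelium, members of the cholesterol side were higher in alveolar macrophage-like cells of KPF1F2 over the whole class, which could be compared only pre-depletion (952 cells in KP and 692 in KPF1F2, a comparison added after the levels by class were seen). Of 23 members that entered, 15 were higher by 1.5-fold or more and 0 lower, where 6.20% of 5369 genes were higher and 2.74% lower. The median was 0.76 over the members and 1.10 on the cholesterol side, against 0.03 over all genes. With cluster 1 alone, which held 726 and 625 of these cells, the count was again 15 (5.93% of genes higher, 3.07% lower). The genotypes were not evenly mixed within it, however: at finer clustering (resolution 2), cluster 3 held 598 KP and 84 KPF1F2 cells and cluster 5 held 38 and 498. Within that finer cluster 3 only 3 of 18 members were higher (Fdps, Dhcr7 and Scd1) and 0 lower, where 3.34% and 4.52% of genes were, and the members' median was 0.24. The plot of macrophage levels pairs the genotypes gene by gene.

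**Figure D5:**
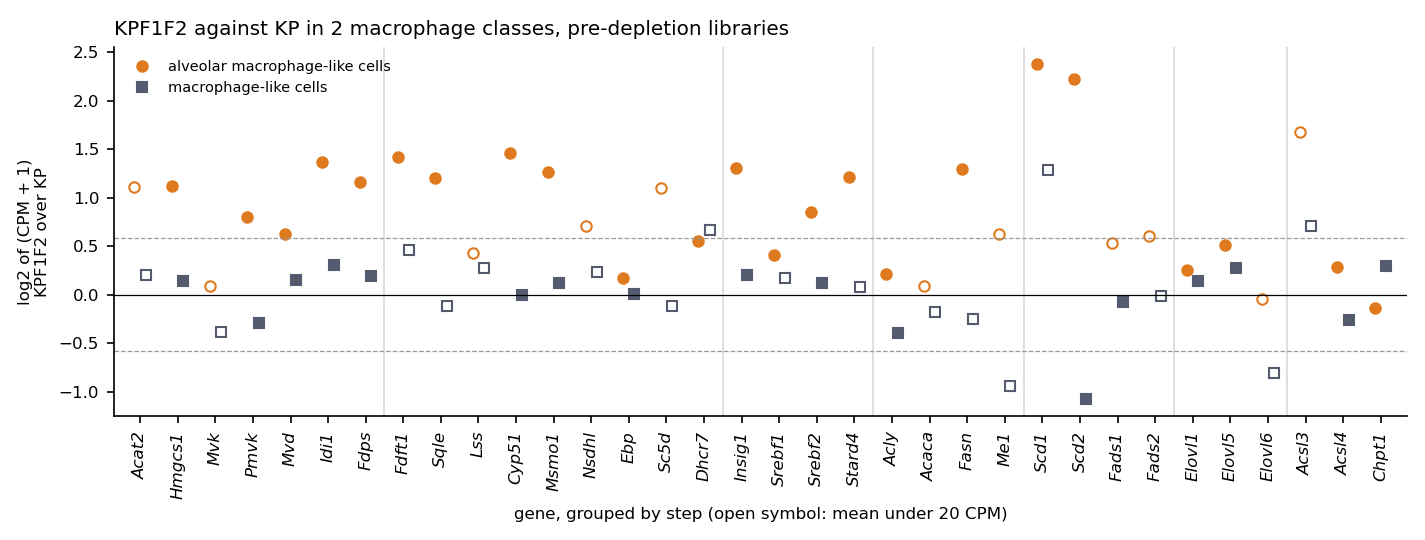
Log2 of (CPM + 1) of KPF1F2 over KP in the pre-depletion libraries for the 34 genes, in alveolar macrophage-like cells (orange circles) and macrophage-like cells (grey squares). Dashed lines mark 1.5-fold, and open symbols are genes under a mean of 20 CPM. Of the filled circles 15 lie above the upper line and of the filled squares 0.

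Hmgcs1 stood at 56.1 CPM in KP and 123 CPM in KPF1F2 (1.12), Idi1 at 38.0 and 100 CPM (1.37) and Fdps at 53.3 and 121 CPM (1.16). Among the mevalonate genes Pmvk (54.6 and 95.9 CPM) and Mvd (57.8 and 89.8 CPM) were higher too. The sterol enzymes counted were Fdft1 (15.4 and 42.8 CPM), Sqle (17.0 and 40.3 CPM), Cyp51 (36.2 and 101 CPM) and Msmo1 (35.9 and 87.3 CPM). Over the whole class all of these were at least 1.5-fold higher in KPF1F2, and so were Insig1 (31.7 and 80.3 CPM), Srebf2 (24.8 and 45.4 CPM) and Stard4 (12.7 and 30.8 CPM). The fatty acid side gave 3 genes: Scd1 (7.65 and 44 CPM, a ratio of 5.75, 4.77 to 6.97), Scd2 (10.1 and 50.9 CPM) and Fasn (11.6 and 30.1 CPM). Acly (98.8 and 114 CPM), Elovl1 (67.8 and 81.0 CPM), Ebp (97.9 and 111 CPM) and Chpt1 (84.9 and 76.7 CPM) were not counted.

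The sterol exporter Abca1 (23.6 and 79.4 CPM), which is not a member, had the same direction in these cells. The epithelial gene Sftpc, a measure of free RNA in these cells, was lower in KPF1F2, at 399 CPM in KP and 91.2 CPM in KPF1F2. Of 9 stress genes 5 were higher in KPF1F2 there, with Hspa1a at 7.59 and 106 CPM and Egr1 at 19.7 and 145 CPM, and 3 of 8 cycling genes were higher too. Their part in the result was not tested. Macrophage-like cells of the same libraries (470 and 571 cells) gave 0 members higher and 1 lower of 17 that entered, where 5.95% of 5314 genes were higher and 8.0% lower, with a median of 0.12. The lower member was Scd2 (44.5 and 20.5 CPM). Alveolar macrophage markers summed to 4135 CPM in macrophage-like cells of KP and to 16569 CPM in those of KPF1F2.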

How the data were processed

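Single-cell RNA of 4 libraries was counted with Cell Ranger on mm10, per the submitters' processing notes and the file headers (cellranger 6.0.0). The deposited values are unnormalised UMI counts per gene and cell barcode.

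Barcodes with 1000 UMIs, 500 genes and at most 20% mitochondrial UMIs were kept. Because the scrublet doublet caller in scanpy 1.11.5 marked under 0.5% of barcodes by its own threshold, the highest scores were removed at 0.8% per 1000 barcodes (91 to 247 cells). Cells were clustered (2000 variable genes, 30 components, 15 neighbours, resolution 1) and a cluster was named X-like where 3 or more markers of 1 of 24 sets were raised 2-fold and its 10 leading genes did not go against the name. Cluster 7 (685 shallow cells, median 2733 UMIs) stayed unnamed, and its cells entered no class or state. A shallow unnamed cluster was also found at coarser clustering (108, 0, 535 and 5 cells) and at resolution 2 (112, 0, 585 and 11 cells). The order is KP pre-depletion, KPF1F2 pre-depletion, KP post-depletion and KPF1F2 post-depletion, so these cells were nearly all KP. Epithelial and alveolar type 2 markers were raised in them. The effect of leaving such cells out was not tested. UMIs were then summed per library, class and state, and scaled to CPM, with 22 other settings tried, among them TMM factors (edgeR 4.0.16) and DESeq2 1.42.0 size factors. The calculation of differences was checked on simulated data.

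All 34 members are named, with all library values for those past 1.5-fold; of related lists, up to 3 genes per direction with the largest smaller fold. The members and lists were chosen with earlier results of these data known. The same holds for the definition of the states. Some alleles and genes of the related lists are not reported here.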

Additional observations from a re-analysis of the deposited data

Results flagged for a closer look

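Among members that entered in both epithelial-like states, 6 had opposite signs of the genotype difference (log2 of KPF1F2 over KP) in the 2 states. This held in both depletion states. Members under the minimum level are left out, although some, such as Cyp51, had opposite signs too (-0.26 and -0.48 against 1.41 and 1.36). The share of all genes with opposite signs is not given here. With 1 library per group, the difference between states was not tested. Pmvk was at -0.71 and -0.16 in transgene-positive and at 1.30 and 1.21 in Sftpc-high cells. Fdps was at -0.37 and -0.34 against 1.20 and 1.27, and Fasn at -0.53 and -0.21 against 0.98 and 0.93. Elovl1 was at -0.47 and -0.21 against 0.91 and 0.58, and Acsl4 at -1.07 and -0.59 against 0.01 and 0.43. Me1 was at -0.16 and -0.38 against 0.09 and 0.33. In Sftpc-high cells pre-depletion, the ratio intervals of Acsl4 (0.921 to 1.10) and Me1 (0.937 to 1.20) included no difference. The transgene-positive sums hold unequal shares of cells with much Sftpc (63.3% and 51.9% in KP, 15.7% and 10.3% in KPF1F2), and among cells with Sftpc under 1% Fasn was at 1.33 and 1.44, Elovl1 at 1.02 and 0.86 and Pmvk at 0.52 and 0.81, higher in KPF1F2 as in Sftpc-high cells. Fdps was still negative there, at -0.13 and -0.62.

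In the pre-depletion libraries 5 members that entered in both macrophage classes had opposite signs in alveolar macrophage-like and macrophage-like cells, which was not tested either. The share of all genes with opposite signs is again not given. Scd2 was at 2.22 and -1.08, Pmvk at 0.80 and -0.29, Acly at 0.21 and -0.40, Acsl4 at 0.29 and -0.26, and Chpt1 at -0.14 and 0.30.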

How the results depend on the processing

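Counts of members past 1.5-fold are given for the settings that moved them by over 1.5 times. The share of all genes stands in brackets, and the number of members that entered each setting is not given here. At 2-fold, Sftpc-high cells had 13 members higher (1.98% of genes) and 0 lower (1.84%) in KPF1F2. Transgene-positive cells had 0 (4.07%) and 0 (2.95%), and all epithelial-like cells 1 (2.95%) and 0 (2.19%). Between states, 7 members were lower in KP transgene-positive cells (2.10%) and 1 was higher in those of KPF1F2 (13.3%). At a minimum of 50 CPM, 13 were higher (9.05%) and 0 lower (5.88%) in Sftpc-high cells, and 5 (10.4%) and 0 (5.21%) over all epithelial-like cells. Between states, 8 were lower in KP transgene-positive cells (6.36%), and 1 was higher in those of KPF1F2 (35.3%). With no minimum, 4 were lower in KPF1F2 than KP transgene-positive cells (6.57%) and 2 over all epithelial-like cells (5.37%). There 2 were higher in KP transgene-positive than Sftpc-high cells (9.83%). The 2 members higher in KPF1F2 transgene-positive than Sftpc-high cells became 1 in 5 settings. These were TMM (16.0%), DESeq2 size factors (15.3%), Sftpc at 0.5% (28.3%), 2 CRE-ERT2 UMIs (34.3%) and surfactant genes out of the total (15.9%). The 2 members lower in KPF1F2 than KP transgene-positive cells became 1 at a pseudocount of 5 (5.07%), and 1 among cells of 10000 to 40000 UMIs (5.01%). The 3 higher there became 0 with 2 CRE-ERT2 UMIs (10.6%). Giving each cell equal weight put 2 members lower in Sftpc-high cells (6.40%).

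Settings chosen after seeing the data were Sftpc at 10%, cluster 0 only, transgene-positive cells with Sftpc under 1%, surfactant genes out, clusters 20 and 24 out, and alveolar macrophage cluster 1 or finer cluster 3. With Sftpc at 10% or cluster 0 only, 0 members were lower in KPF1F2 Sftpc-high cells and 2 higher in KP transgene-positive cells. With Sftpc under 1%, 8 members were higher and 1 lower in KPF1F2 transgene-positive cells, and Acsl4, counted as lower before, changed sign to 0.05 post-depletion. Of the 34 members, 5 changed sign in both depletion states there: Pmvk, Lss, Fasn, Fads1 and Elovl1. Within finer alveolar macrophage cluster 3, 3 members were higher (3.34%) against 15 over the class (6.20%). The causes were not tested. Over the genes counted in each comparison, 2222 values moved by less than their counting interval, 637 moved by more and 1 changed sign. No paired analysis was possible because each group is 1 library. KPF1F2 pre-depletion, with 51 transgene-positive and 57 Sftpc-high cells, has the widest counting intervals.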

Other observations

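Lipid genes outside the 2 routes gave other patterns. Apoe, a lipid carrier, was lower in KPF1F2 than in KP in both states, at 1365 and 2349 against 627 and 777 CPM in Sftpc-high cells and at 1609 and 2166 against 112 and 84.1 CPM in transgene-positive cells. The fatty acid carrier Fabp5 was higher in KPF1F2 Sftpc-high cells (1042 and 789 against 2161 and 1700 CPM) and lower in KPF1F2 transgene-positive cells (682 and 501 against 101 and 135 CPM). Pparg, the lipid-sensing nuclear receptor, was lower in KPF1F2 transgene-positive cells (28.9 and 32.9 against 11.2 and 7.60 CPM). Cd36, a fatty acid transporter, was higher in KPF1F2 in both states, with 325 and 292 against 633 and 539 CPM in Sftpc-high and 208 and 150 against 409 and 392 CPM in transgene-positive cells.

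Lipid droplet and surfactant genes differed between states. Plin2, which coats lipid droplets, was higher in transgene-positive cells of both genotypes (1.10 and 1.62 in KP, 0.84 and 0.94 in KPF1F2) and also higher in KPF1F2 than in KP Sftpc-high cells (78.0 and 80.3 against 200 and 186 CPM). Lpcat1, which remodels surfactant phosphatidylcholine, was lower in transgene-positive cells (-1.48 and -1.76 in KP, -3.07 and -2.88 in KPF1F2), and so was the surfactant lipid pump Abca3 (-1.14 and -1.29, and -1.75 and -1.77). Scd1 in B cell-like cells stood at 359 CPM in KP and 268 CPM in KPF1F2, second only to epithelial-like cells in both pre-depletion libraries.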
